A study of Mus musculus with 3 samples.

Results

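The T-box genes *Tbx1*, *Tbx2*, *Tbx3*, *Tbx5*, *Tbx15* and *Tbx18* were described in single cells of the fetal mouse thymus, as 6 of the 27998 genes counted. They were chosen by name, and their unique molecular identifiers (UMIs, each standing for 1 captured transcript) were counted in cells defined by *Epcam*, *Pdgfra*, *Cdh5* or *Ptprc* and compared between genotypes. Thymic lobes of C57BL/6 embryos at a gestational age of E13-13.5 were dissociated with trypsin, and 1 droplet library of 3′ transcript ends was made for each of 3 genotypes: wild type (the control), Tbx1neo2/neo2 and Foxn11089/1089. Tbx1neo2 carries a neomycin cassette in intron 5 of *Tbx1* in every cell of the embryo, with no tissue-specific driver, and Foxn1 1089 is a small deletion in *Foxn1*, the master regulator of thymic epithelium. How many embryos went into a library, and their sex, was not given in the sources used here.

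T-box proteins are transcription factors that bind DNA through a shared domain, the T-box, and act in patterning the embryo. *Tbx1* is required for the pharyngeal pouches and arches, from which the thymus and parathyroid glands arise, and it is a major gene of the 22q11.2 deletion syndrome, in which the thymus can be small or missing. *Tbx2* and *Tbx3* encode close relatives that mostly repress transcription, *Tbx5* is known for the forelimb and the heart, and *Tbx15* and *Tbx18* for skeletal, somite-derived and mural mesenchyme.

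The 6 genes lie on 5 chromosomes of GRCm38 in the GENCODE M21 annotation. *Tbx1* (ENSMUSG00000009097) is at chr16:18580979-18590671 on the minus strand and *Tbx2* (ENSMUSG00000000093) at chr11:85832551-85841948 on the plus strand, 44473 bases from its relative *Tbx4*. *Tbx3* (ENSMUSG00000018604, chr5:119670669-119684724) and *Tbx5* (ENSMUSG00000018263, chr5:119832668-119885219) are both on the plus strand of chromosome 5, 147943 bases apart. *Tbx15* (ENSMUSG00000027868) is at chr3:99240381-99354259 on the plus strand and *Tbx18* (ENSMUSG00000032419) at chr9:87702800-87731260 on the minus strand. *Tbx3* overlaps the antisense gene *Tbx3os1* over 697 bases, *Tbx15* overlaps *Gm43120* over 6588 and *Tbx18* overlaps D030062O11Rik over 1976, each on the opposite strand, and whether the counting used strand is not given in the sources used here.

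The T-box is shown here as 60 bases of coding sequence from each gene, because it is what the 6 genes share and where they differ. Each window lies within 1 exon and was read from GENCODE transcripts on the coding strand, 5′ to 3′, and capitals mark the 29 positions that are identical in all 6 genes.
Tbx1: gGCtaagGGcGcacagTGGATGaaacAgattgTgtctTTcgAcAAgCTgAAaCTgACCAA
Tbx2: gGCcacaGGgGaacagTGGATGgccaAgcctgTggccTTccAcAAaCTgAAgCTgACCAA
Tbx3: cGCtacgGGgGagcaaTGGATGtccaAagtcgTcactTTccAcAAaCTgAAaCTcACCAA
Tbx5: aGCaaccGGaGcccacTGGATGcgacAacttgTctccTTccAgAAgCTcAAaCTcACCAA
Tbx15: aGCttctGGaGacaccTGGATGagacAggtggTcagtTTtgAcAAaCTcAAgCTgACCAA
Tbx18: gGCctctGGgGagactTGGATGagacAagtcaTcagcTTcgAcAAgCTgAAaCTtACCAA
The windows are at chr16:18584109-18584168 (*Tbx1*, exon 3), chr11:85834803-85834862 (*Tbx2*, exon 2), chr5:119674209-119674268 (*Tbx3*, exon 2), chr5:119841816-119841875 (*Tbx5*, exon 5), chr3:99314831-99314890 (*Tbx15*, exon 4) and chr9:87724327-87724386 (*Tbx18*, exon 4). Over the 246 aligned coding bases around them, *Tbx2* and *Tbx3* were 80.1% identical and *Tbx15* and *Tbx18* 78.9%. All other pairs were between 56.9% (*Tbx5* and *Tbx18*) and 66.3% (*Tbx1* and *Tbx18*) identical.

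The libraries held 5932 (control), 5516 (Tbx1neo2/neo2) and 11772 (Foxn11089/1089) cells that passed the filters (200 or more genes detected, mitochondrial share below 20%), with 81885273, 136517727 and 202825405 UMIs. A cell entered a class when it had at least 2 UMIs of the class marker and at least 80% of its UMIs of the 4 markers came from it, which placed 46.1 to 57.5% of the cells. Epithelial cells (*Epcam*) numbered 1985, 809 and 4082 in the control, Tbx1neo2/neo2 and Foxn11089/1089 libraries, mesenchymal cells (*Pdgfra*) 663, 1339 and 2265, endothelial cells (*Cdh5*) 51, 94 and 108, and hematopoietic cells (*Ptprc*) 578, 299 and 319. In each class, 4 further markers had their highest level in that class in all 3 libraries (12 of 12 values). The median epithelial cell held 16582, 46025 and 20965 UMIs in the same order, so shares of cells with a UMI are given after thinning each cell to 5000 UMIs. Numbers of cells in marker sets within a class are from cells that were not thinned, and the part of depth in them was not tested. Red blood cells, taken as unassigned cells with at least 50% hemoglobin UMIs, served as cells that should lack these transcripts. With 1 library per genotype no difference between genotypes could be tested, and the 95% intervals in parentheses cover counting error only. The library labelled Tbx1neo2/neo2 stood apart in depth, with 28.3% of its cells under 2000 UMIs against 10.3% and 12.4% in the control and Foxn11089/1089. The median mitochondrial share was 2.59% in the control, 5.80% in Tbx1neo2/neo2 and 5.03% in Foxn11089/1089, and its part in the differences between genotypes was not tested. Pairs of libraries shared 16 to 24 cell barcodes.

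The 6 genes fell into 1 that was highest in endothelium and 5 that were highest in mesenchyme. *Tbx1* was highest in endothelial cells in all 3 libraries. *Tbx2*, *Tbx3* and *Tbx18* were highest in mesenchymal cells in all 3 libraries, and *Tbx5* and *Tbx15* were mesenchymal genes that had almost all of their UMIs in the library labelled Tbx1neo2/neo2. In red blood cells no member exceeded 0.94 CPM, a level read as background. CPM is the UMIs of a gene in the cells summed, divided by all UMIs of these cells and multiplied by 1000000. Levels were set side by side within a gene, since 3′ UMI counts are not scaled to transcript length.

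**Figure D1:**
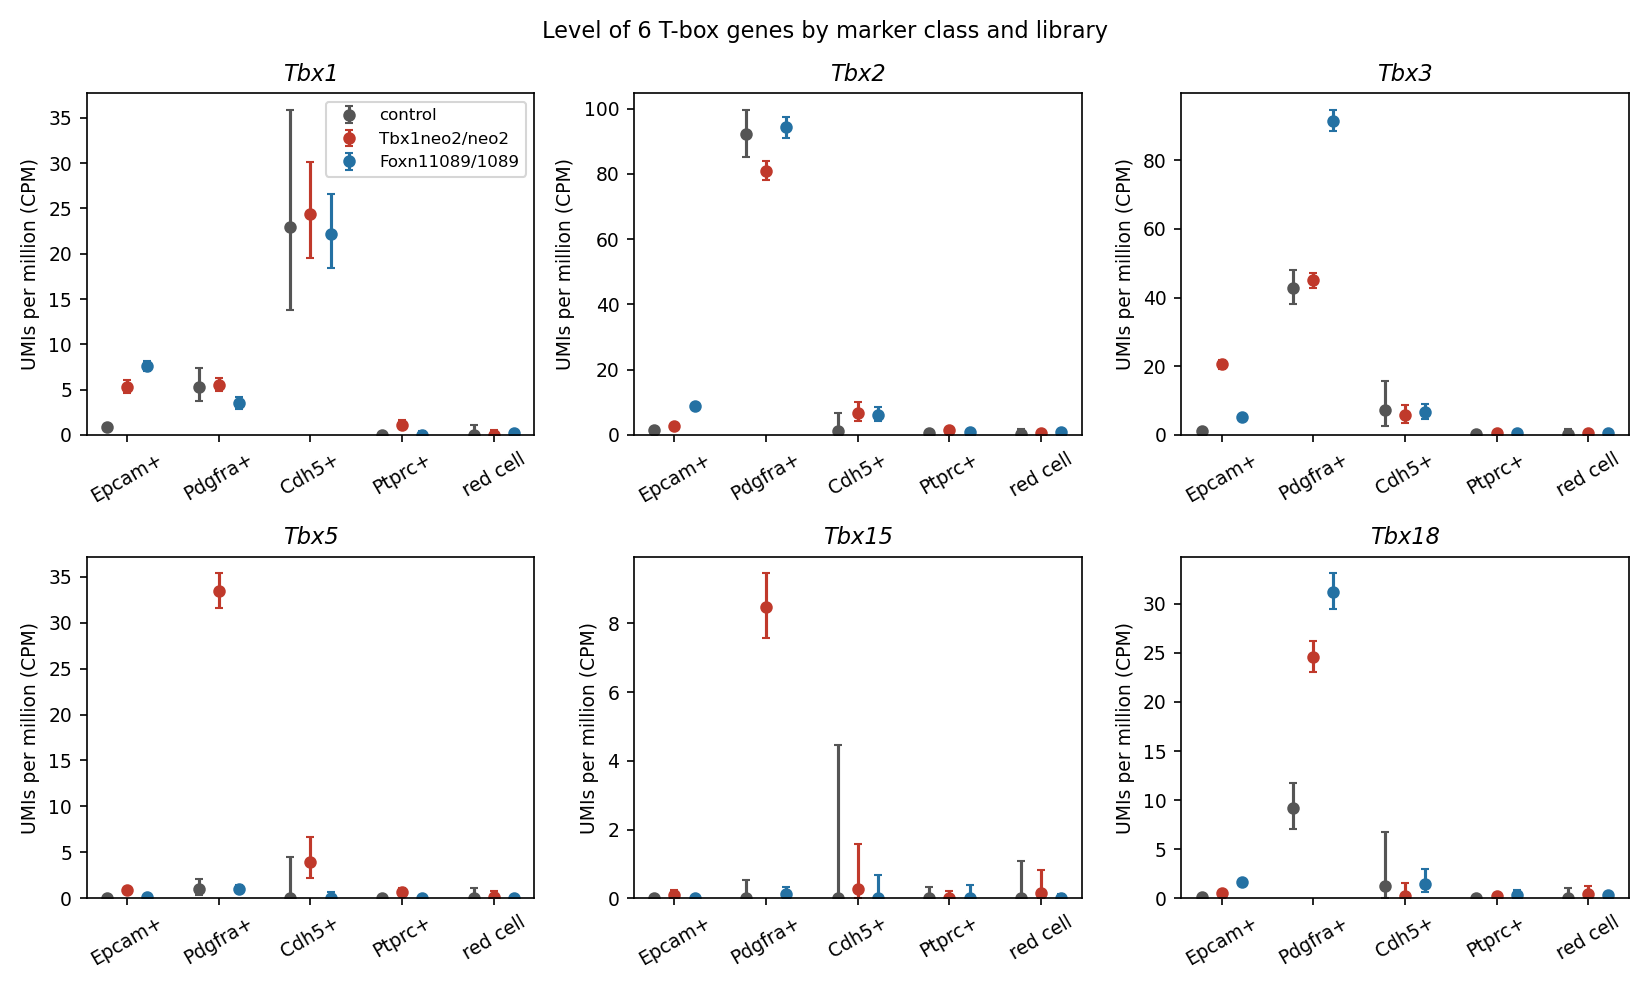
Level of each T-box gene (vertical axis, CPM, a scale of its own per gene) in *Epcam*-, *Pdgfra*-, *Cdh5*- and *Ptprc*-positive cells and red blood cells, with 1 point per library and exact 95% Poisson intervals. *Tbx1* sits between 22.2 and 24.4 CPM in endothelium in all 3 libraries, while the *Tbx5* and *Tbx15* levels of 33.5 and 8.47 CPM in the mesenchyme of the Tbx1neo2/neo2 library stand above those of the mesenchyme of the other libraries.

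*Tbx1*, the pharyngeal regulator targeted in one of the lines, was compared first. In endothelial cells it was at 23.0 CPM (13.8 to 35.9, 19 UMIs) in the control, 24.4 (19.5 to 30.2, 86 UMIs) in the library labelled Tbx1neo2/neo2 and 22.2 (18.4 to 26.5, 119 UMIs) in Foxn11089/1089. The 3 intervals overlapped. After thinning, 11.4%, 10.3% and 7.62% of endothelial cells had a *Tbx1* UMI, against 0% of red blood cells in the control and Tbx1neo2/neo2 and 0.15% in Foxn11089/1089, whose median cells held 8506 to 18637 UMIs. Over the control, the log2 ratio came to 0.09 (-0.64 to 0.89) in Tbx1neo2/neo2 and -0.05 (-0.76 to 0.73) in Foxn11089/1089, intervals that reach well to both sides of 0. With means of CPM per cell in place of summed UMIs, the Tbx1neo2/neo2 ratio was 1.20, past 2-fold.

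Part of the endothelial *Tbx1* lay in the few cells with lymphatic markers. Cells with at least 2 UMIs each of at least 3 of *Prox1*, *Lyve1*, *Flt4*, *Pdpn*, *Mmrn1* and *Reln* numbered 2, 7 and 4 in the control, Tbx1neo2/neo2 and Foxn11089/1089 libraries. They held *Tbx1* at 113, 41.0 and 119 CPM and 21.1%, 31.4% and 31.9% of the endothelial *Tbx1* UMIs. Outside them the level was 19.0, 20.6 and 16.1 CPM. Most endothelial *Tbx1* UMIs were thus in cells without the lymphatic set. In the 2 mutant libraries, where at least 20 endothelial cells carried a *Tbx1* UMI, the 5 genes most raised in these cells against *Tbx1*-negative endothelial cells were *Ptx3*, *Ccl21a*, *Prox1*, *Sh3gl3* and *Maf*. *Ccl21a* encodes a lymphatic chemokine and *Prox1* the transcription factor that sets lymphatic identity, and their lower log2 ratio of the 2 libraries was 4.52 and 3.41. These cells were ranked after the counts had been seen.

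In mesenchymal cells *Tbx1* was at 5.33 CPM (3.73 to 7.38, 36 UMIs) in the control, 5.52 (4.79 to 6.33, 206 UMIs) in the library labelled Tbx1neo2/neo2 and 3.47 (2.89 to 4.13, 126 UMIs) in Foxn11089/1089. The control and Tbx1neo2/neo2 values were within each other's intervals. The ratio on the log2 scale was 0.05 (-0.47 to 0.60) in Tbx1neo2/neo2 and -0.62 (-1.16 to -0.04) in Foxn11089/1089, neither past the 2-fold limit set for a call. Where mesenchymal cells needed at least 4 *Pdgfra* UMIs and 90% of the marker UMIs, the ratios were -0.69 and -1.17, the latter past 2-fold.

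Epithelial cells showed the widest spread of *Tbx1* between the genotypes. The level was 0.85 CPM (0.57 to 1.23, 29 UMIs) in the control, 5.33 (4.66 to 6.07, 227 UMIs) in Tbx1neo2/neo2 and 7.58 (7.05 to 8.13, 760 UMIs) in Foxn11089/1089. Both mutant libraries were above the control interval. Over the control these were log2 ratios of 2.64 (2.08 to 3.25) and 3.15 (2.61 to 3.74), or 2.24 and 2.85 above the median of all genes counted in these cells, which was itself 0.40 and 0.30 above the control. The control level, the base of both ratios, was within the range read as background. *Tbx1* itself was at 0 CPM in control red blood cells. A *Tbx1* UMI was found in 0.36% of thinned control epithelial cells, 3.07% in Tbx1neo2/neo2 and 2.61% in Foxn11089/1089. *Tbx1* was therefore not lower in the library labelled Tbx1neo2/neo2 than in the control in epithelium, and from summed UMIs not past the fold in mesenchyme or endothelium. The counts come from the 3′ end of the transcript, and 1579 of 2511 exonic bases in one coding transcript and 1078 of 1858 in another lie downstream of intron 5, so they cannot tell normally spliced transcripts from others and are a limited check of the label. The authors, citing earlier work, describe this line as having *Tbx1* below its normal level. That is not a measurement in these lobes, and they also state that the embryonic thymus does not express *Tbx1*. Summed counts in the classes as defined did not show a lower level. Less the median of all genes, the log2 ratio in Tbx1neo2/neo2 was -0.32 in mesenchyme and -0.36 in endothelium, neither past 2-fold. The name Tbx1neo2/neo2 below stands for the library so labelled.

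**Figure D2:**
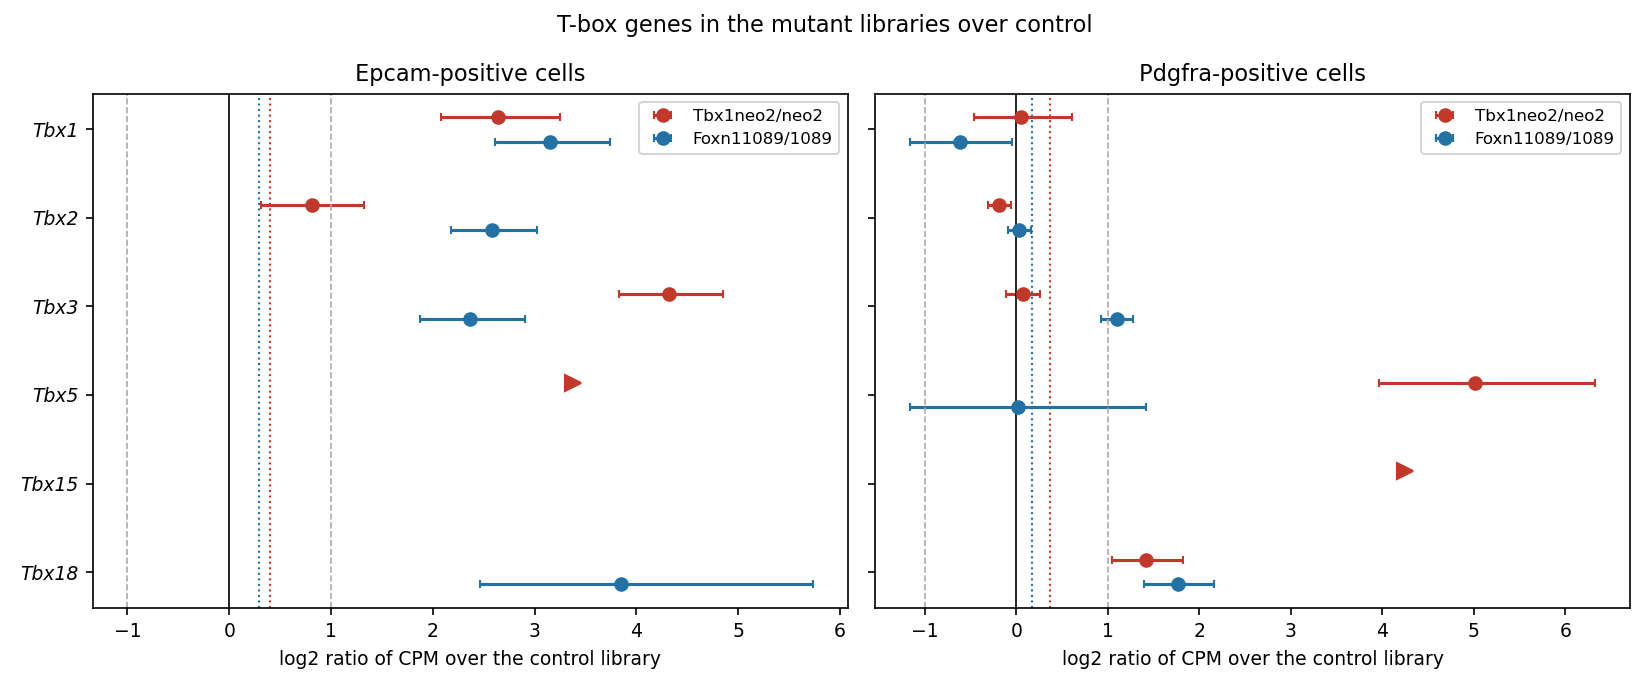
Log2 ratio of CPM over the control library (horizontal axis) for each T-box gene with at least 30 UMIs in the pair, in *Epcam*-positive (left) and *Pdgfra*-positive cells (right), with 95% counting intervals. Triangles are ratios to the limit of 3 UMIs for genes at 0 UMIs in the control, dashed lines mark 2-fold, dotted lines the median of all genes, and *Tbx1* lies past 2-fold in epithelium but not in mesenchyme in both mutant libraries.

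The epithelial *Tbx1* UMIs of the 2 mutant libraries lay in different cells. In Foxn11089/1089, 336 epithelial cells carried parathyroid markers (at least 2 UMIs each of at least 3 of *Pth*, *Gcm2*, *Chga*, *Casr* and *Spp1*). They held *Tbx1* at 40.0 CPM (36.6 to 43.6) and 513 of the 760 epithelial *Tbx1* UMIs (67.5%). The control had 20 such cells with *Tbx1* at 18.2 CPM (5.90 to 42.4, 5 UMIs), an interval that overlaps, and Tbx1neo2/neo2 had 0 of 809, which allows a share of up to 0.37%. The parathyroid-marked cells were thus the cells of highest epithelial *Tbx1* in Foxn11089/1089 and had no counterpart in the library labelled Tbx1neo2/neo2.

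In the library labelled Tbx1neo2/neo2 most of the *Tbx1* UMIs lay in 56 epithelial cells with at least 2 UMIs of *Foxa2* or *Shh* and outside the parathyroid, thyroid and thymic epithelial marker sets. These genes encode a forkhead factor and a secreted signal of the pharyngeal and gut endoderm that act upstream of *Tbx1*. This split was chosen after the counts had been seen. The 56 cells were 6.92% of the epithelial cells, and 164 of the 227 *Tbx1* UMIs (72.2%) were in them, at 61.3 CPM (52.3 to 71.5). The control had 2 such cells with 2 *Tbx1* UMIs and Foxn11089/1089 had 0. In the Tbx1neo2/neo2 epithelium as a whole the genes most raised with *Tbx1* included *Scgb3a2*, an airway secretoglobin (log2 ratio 8.03), and *Muc5ac*, a gel-forming mucin (6.97). In Foxn11089/1089 they were led by *Sall4*, a zinc-finger transcription factor (7.04), followed by *Serpinb12*, *Etnppl*, *Atp2b3* and *Rasgef1a*. Ranked over all 3 libraries, the leading genes were *Cldn3*, a tight junction protein with a log2 ratio of at least 1.85, then *Spink8*, *Itgb5*, *Fcgrt* and *Gdpd1*. These rankings were also made after the counts had been seen.

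Cells with thymic epithelial markers (at least 3 of *Foxn1*, *Psmb11*, *Ccl25*, *Prss16* and *Cd83*) held less *Tbx1*. Their level was 0.34 CPM (0.12 to 0.74, 6 UMIs in 1050 cells) in the control, 1.26 (0.88 to 1.76, 35 UMIs in 517 cells) in the library labelled Tbx1neo2/neo2 and 1.75 (0.93 to 2.998, 13 UMIs in 285 cells) in Foxn11089/1089. The set holds *Foxn1*, the gene mutated in one line, and took 1050 of 1985 control but 285 of 4082 Foxn11089/1089 epithelial cells, so the cells compared are not alike. Both mutant intervals were above the control interval, and all 3 levels were below that of the epithelial class of the same library. The control level was within the range read as background, and both mutant intervals began within it. With parathyroid-marked, thyroid-marked and *Foxa2*- or *Shh*-positive cells left out, the log2 ratio of epithelial *Tbx1* over the control was 1.43 (0.69 to 2.20, 58 against 22 UMIs) in Tbx1neo2/neo2 and 2.11 (1.48 to 2.81, 247 against 22 UMIs) in Foxn11089/1089, both still past 2-fold.

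**Figure D3:**
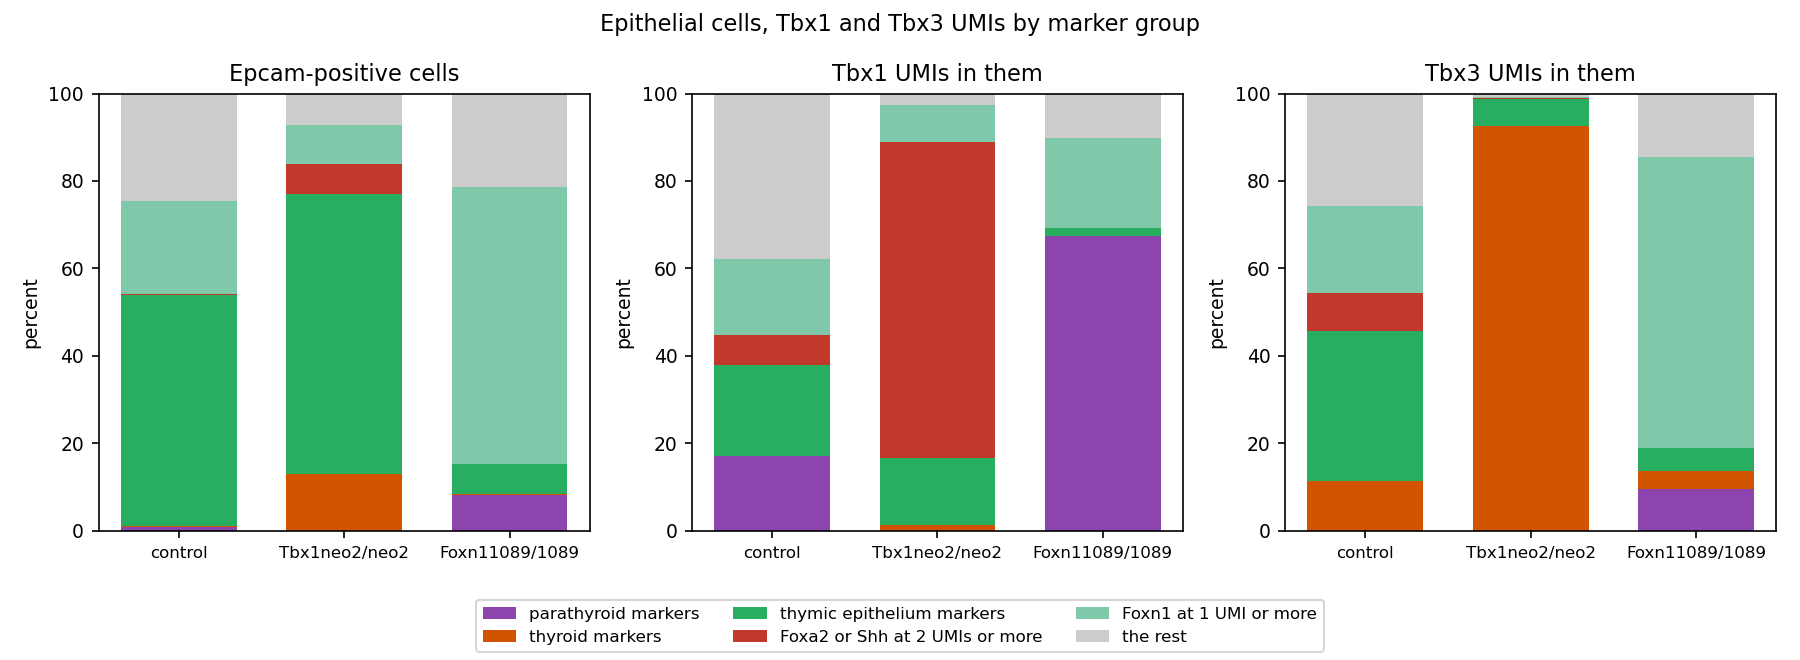
Share in percent (vertical axis) of *Epcam*-positive cells, of their *Tbx1* UMIs and of their *Tbx3* UMIs in each library, stacked by exclusive marker group. Parathyroid-marked cells were 8.23% of the Foxn11089/1089 epithelial cells and held 67.5% of its *Tbx1* UMIs, *Foxa2*- or *Shh*-positive cells 72.2% of those of Tbx1neo2/neo2, and thyroid-marked cells 92.7% of its *Tbx3* UMIs.

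In hematopoietic cells *Tbx1* had 0 UMIs in the control (3 UMIs would be 0.26 CPM) and in Foxn11089/1089 (0.31 CPM), and 20 UMIs in 17 of 299 cells of the library labelled Tbx1neo2/neo2, 1.09 CPM (0.67 to 1.69). The lower end of this interval was within the range read as background. These 17 cells held a median of 60852 UMIs, and the other 282 one of 61782. *Epcam* was at 15.5 CPM in the 17 cells and 8.50 in the others, the endothelial marker *Cdh5* was at 0, and the T-cell receptor component *Cd3g* was at 521 and 344 CPM. Whether epithelial RNA in the same droplets accounts for these UMIs was not tested.

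*Tbx2* and *Tbx3* encode the pair of repressors that was most alike over the 246 aligned bases, and both were mesenchymal genes. *Tbx2* was at 92.1 CPM (85.02 to 99.6, 622 UMIs) in control mesenchyme, 81.0 (78.1 to 83.9, 3020 UMIs) in the library labelled Tbx1neo2/neo2 and 94.3 (91.1 to 97.5, 3422 UMIs) in Foxn11089/1089. It differed least between the libraries of all members in their highest class other than *Tbx1*, with log2 ratios over the control of -0.19 (-0.31 to -0.06) and 0.03 (-0.09 to 0.16). A *Tbx2* UMI was found in 30.8%, 29.2% and 34.4% of thinned mesenchymal cells and in at most 0.41% of thinned red blood cells. In pericyte- and smooth muscle-marked mesenchymal cells, the level was 119 CPM in the control, 63.3 in Tbx1neo2/neo2 and 105 in Foxn11089/1089. The Tbx1neo2/neo2 value was the lowest of the 3, and without these cells its log2 ratio for *Tbx2* over the control in mesenchyme was 0.09 (-0.06 to 0.23). The genes most raised in *Tbx2*-positive mesenchymal cells in every library were *Etv4* and *Etv5*, transcription factors induced by FGF signals, with log2 ratios of at least 1.65 and 1.52, then *Gm13889*, *Mtfr2* and *Sp5*, a Wnt-responsive factor.

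In epithelial cells *Tbx2* was at 1.47 CPM (1.09 to 1.94, 50 UMIs) in the control, 2.58 (2.12 to 3.12, 110 UMIs) in the library labelled Tbx1neo2/neo2 and 8.84 (8.27 to 9.44, 887 UMIs) in Foxn11089/1089. The Foxn11089/1089 library was highest, with a log2 ratio over the control of 2.59 (2.17 to 3.03), and the Tbx1neo2/neo2 ratio of 0.81 (0.32 to 1.32) was not past 2-fold. Leaving out parathyroid- and thyroid-marked cells gave 2.77 and 1.16. With *Foxa2*- or *Shh*-positive cells left out too, the Tbx1neo2/neo2 ratio was again not past 2-fold, so the call depended on the cells left out. In Tbx1neo2/neo2, the 56 *Foxa2*- or *Shh*-positive cells outside the marker sets held 27 of the 110 *Tbx2* UMIs, at 10.1 CPM. In the Foxn11089/1089 epithelium 59.9% of the *Tbx2* UMIs were in cells with a *Foxn1* UMI and without any of the other marker sets, which were 63.4% of its cells, so *Tbx2* was not concentrated in the parathyroid-marked cells as *Tbx1* was.

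*Tbx3* was at 42.8 CPM (38.0 to 48.0, 289 UMIs) in control mesenchyme, 45.0 (42.9 to 47.2, 1678 UMIs) in the library labelled Tbx1neo2/neo2 and 91.6 (88.5 to 94.8, 3325 UMIs) in Foxn11089/1089. Foxn11089/1089 stood apart from the other 2 libraries. It exceeded the control by a log2 ratio of 1.10 (0.92 to 1.28), just past 2-fold, and 0.93 above the median of all genes, just under it. In Tbx1neo2/neo2 the ratio was 0.07 (-0.11 to 0.26). A *Tbx3* UMI was found in 18.8%, 18.3% and 31.9% of thinned mesenchymal cells. The genes most raised in *Tbx3*-positive mesenchymal cells in every library included *Cenpf*, a kinetochore protein, and *Ccnb1*, a mitotic cyclin, with log2 ratios of at least 1.02 and 0.97, beside *Sapcd2*, *Hist2h2bb* and *Sele*. The *Tbx3*-positive cells were also deeper, with a median of 10911, 27244 and 16216 UMIs against 9079, 24616 and 12925 in *Tbx3*-negative cells, and the part of depth in these lists was not tested.

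In epithelial cells *Tbx3* was at 1.03 CPM (0.72 to 1.43, 35 UMIs) in the control, 20.5 (19.2 to 21.9, 874 UMIs) in the library labelled Tbx1neo2/neo2 and 5.31 (4.87 to 5.78, 533 UMIs) in Foxn11089/1089. All 3 intervals were apart. This made a log2 ratio over the control of 4.32 (3.83 to 4.85) in Tbx1neo2/neo2 and 2.37 (1.87 to 2.90) in Foxn11089/1089. In Tbx1neo2/neo2, 106 cells with thyroid markers (at least 3 of *Nkx2-1*, *Foxe1*, *Pax8*, *Tg* and *Hhex*) held 810 of the 874 UMIs, and *Tbx3* was at 119 CPM in them (111 to 128). The control had 2 thyroid-marked cells and Foxn11089/1089 had 6, with *Tbx3* at 107 and 144 CPM in them, and the 3 intervals overlapped (29.1 to 274 in the control and 90.3 to 218 in Foxn11089/1089). Without parathyroid- and thyroid-marked cells the log2 ratio was 0.96 (0.32 to 1.63) in Tbx1neo2/neo2, no longer past 2-fold, and 2.51 (1.99 to 3.09) in Foxn11089/1089. With *Foxa2*- or *Shh*-positive cells left out too, the Tbx1neo2/neo2 ratio was past 2-fold again, so the call changed with the cells left out. Among the genes most raised with *Tbx3* in the Tbx1neo2/neo2 epithelium was *Tshr*, the thyrotropin receptor (log2 ratio 9.14), beside *Folr1*, *Fezf1*, *Sftpb* and *Kcnip1*, a ranking made after the counts had been seen.

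*Tbx18*, which marks pericytes and mesenchyme around ducts and vessels in other organs, was at 9.18 CPM (7.04 to 11.8, 62 UMIs) in control mesenchyme, 24.6 (23.0 to 26.3, 918 UMIs) in the library labelled Tbx1neo2/neo2 and 31.2 (29.4 to 33.1, 1134 UMIs) in Foxn11089/1089. Both mutant libraries were above the control interval. Over the control they had log2 ratios of 1.42 (1.05 to 1.82) and 1.77 (1.40 to 2.16). A *Tbx18* UMI was found in 4.81%, 9.26% and 13.8% of thinned mesenchymal cells. In cells marked as pericytes or smooth muscle *Tbx18* was at 9.60, 18.6 and 23.9 CPM, against 9.10, 28.4 and 32.8 in the other mesenchymal cells, so it was not higher there in either mutant library and level with them in the control. In Foxn11089/1089 epithelium it reached 1.69 CPM (1.45 to 1.97, 170 UMIs), against 0.12 (4 UMIs) in the control, a log2 ratio of 3.85 (2.46 to 5.74), and in Tbx1neo2/neo2 it was at 0.54 (23 UMIs), too few to be counted. The control and Tbx1neo2/neo2 epithelial levels were within the range read as background. The gene most raised in *Tbx18*-positive mesenchymal cells in every library was *Cxcl13*, a chemokine, at a log2 ratio of at least 0.70, followed by *Nefm*, *Grin3a*, *Man2a1* and *Prc1*.

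*Tbx5*, the forelimb and heart gene, was the member that differed most between the libraries among those with UMIs in control mesenchyme. It was at 1.04 CPM (0.42 to 2.14, 7 UMIs) in the control, 33.5 (31.6 to 35.4, 1248 UMIs) in the library labelled Tbx1neo2/neo2 and 1.05 (0.74 to 1.44, 38 UMIs) in Foxn11089/1089. The control and Foxn11089/1089 libraries were level. Set against the control, the log2 ratio was 5.01 (3.97 to 6.33) in Tbx1neo2/neo2 and 0.01 (-1.17 to 1.42) in Foxn11089/1089. Thinned mesenchymal cells had a *Tbx5* UMI in 12.6% of cases in Tbx1neo2/neo2, against 0.48% and 0.31%. In Tbx1neo2/neo2, 720 of the 2034 *Tbx5* UMIs (35.4%) were in cells without a class. Of the other marker classes, epithelium held 39 *Tbx5* UMIs, 1 endothelial cell 14 and hematopoietic cells 12, 9 of them in 1 cell. The epithelial *Tbx5* level of 0.92 CPM (0.65 to 1.253) was within the range read as background. *Tbx5* itself was, however, at 0.15 CPM in red blood cells of that library. The control had 0 UMIs in epithelium, and the level was 10.4-fold that of a control at the limit of 3 UMIs, with a counting interval of the ratio that began at 8.04-fold.

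*Tbx15*, the skeletal gene most like *Tbx18* over the 246 aligned bases, followed the same pattern. It had 0 UMIs in control mesenchyme, which allows a UMI in up to 0.45% of the 663 cells (a limit on cells with a UMI, at a median depth of 9488 UMIs, and not on cells that express the gene), 316 UMIs in 156 of 1339 cells of the library labelled Tbx1neo2/neo2 (8.47 CPM, 7.56 to 9.46) and 5 UMIs in Foxn11089/1089 (0.14 CPM, 0.04 to 0.32). Over all kept cells the control held 1 *Tbx15* UMI and Foxn11089/1089 held 7. The level in Tbx1neo2/neo2 mesenchyme was 19.1-fold that of a control at 3 UMIs, the limit taken for a count of 0, and the counting interval of the ratio began at 15.4-fold.

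In the Tbx1neo2/neo2 mesenchyme, the levels of *Tbx5* and *Tbx15* differed between cells set apart by other genes. The genes most raised with *Tbx5* were *C1ql2*, *Smpx*, *Hoxa10*, *Hoxa9* and *Hoxa7*, the last 3 being Hox genes that give cells a posterior position, and *Hoxa10* was also among the 5 most raised with *Tbx15*, beside *Calcb*, *Calb1*, *Ly6c1* and *Emx2os*. The 94 mesenchymal cells with a UMI of *Hoxa7*, *Hoxa9* or *Hoxa10* held *Tbx5* at 127 CPM (113 to 142), *Tbx15* at 52.8 (44.0 to 62.9), *Tbx3* at 124 (110 to 139) and *Tbx18* at 83.3 (72.0 to 95.7). The 274 cells with a UMI of *Tbx4* or *Foxf1*, genes of lung and gut mesenchyme, held *Tbx5* at 60.5 CPM (55.2 to 66.1) and *Tbx2* at 126 (119 to 135), but *Tbx15* at 0.87 (0.35 to 1.80) and *Tbx18* at 6.35 (4.73 to 8.35). *Tbx15* and *Tbx18* were thus high in the first cells and low in the second, while *Tbx5* was high in both. The split was made after the counts had been seen and from genes raised with *Tbx5*, so it is a description.

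**Figure D4:**
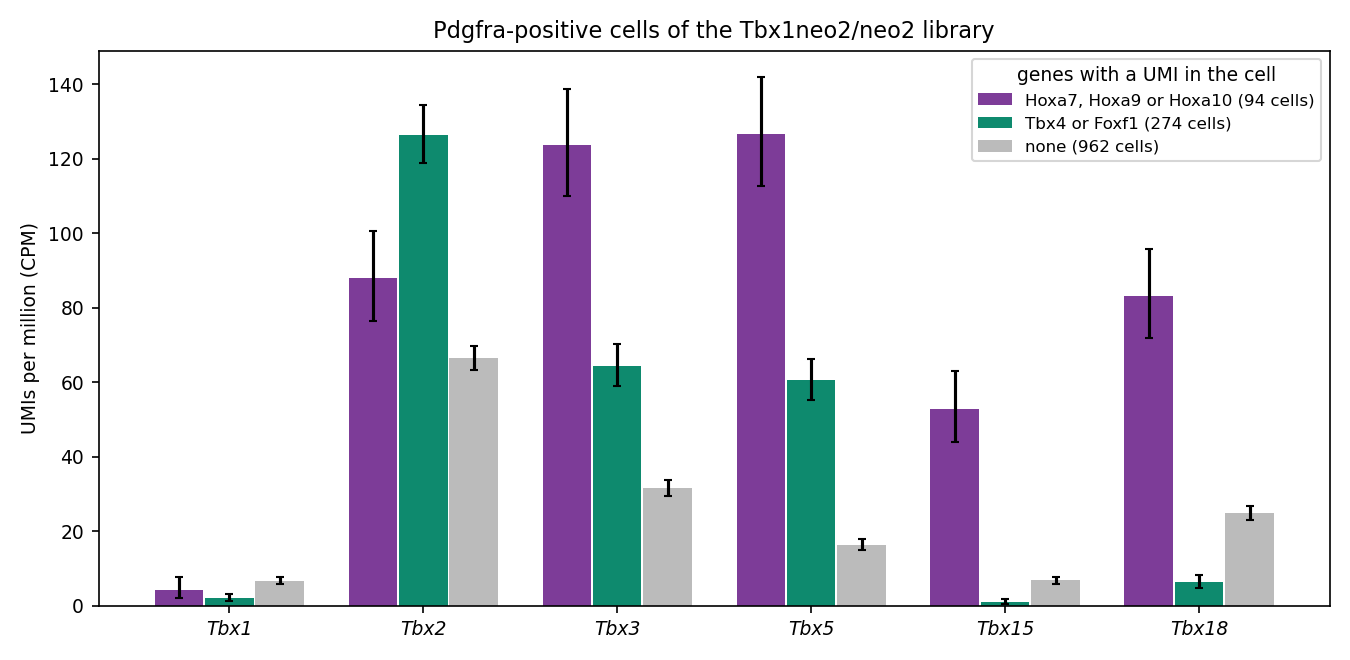
Level of the T-box genes (vertical axis, CPM, with exact 95% Poisson intervals) in *Pdgfra*-positive cells of the Tbx1neo2/neo2 library with a UMI of *Hoxa7*, *Hoxa9* or *Hoxa10*, with one of *Tbx4* or *Foxf1*, or with neither. *Tbx15* is at 52.8 CPM in the first cells and 0.87 in the second, while *Tbx1* is highest in the third, at 6.73.

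Such cells were fewer in the other libraries. The median mesenchymal cell held 9488 UMIs in the control and 14501 in Foxn11089/1089, against 25709 in Tbx1neo2/neo2. These cells were not thinned, and the part of depth in their numbers was not tested. The *Hoxa* set was found in 2 mesenchymal cells of the control and 2 of Foxn11089/1089, and the *Tbx4* or *Foxf1* set in 9 and 93, with *Tbx5* at 0 and 0.57 CPM in the latter. *Hoxc6* was at 0 CPM in control and Foxn11089/1089 mesenchyme and at 11.2 CPM in the library labelled Tbx1neo2/neo2. In the 962 Tbx1neo2/neo2 cells with none of these genes *Tbx5* was still at 16.3 CPM (14.8 to 18.0) and *Tbx15* at 6.77 (5.81 to 7.83). These cells held 435 of the 1248 *Tbx5* UMIs and 180 of the 316 *Tbx15* UMIs of the class, and the log2 ratio of *Tbx5* over the control without the marked cells was 3.95 (2.90 to 5.27). Cartilage markers were found in 124 mesenchymal cells of Tbx1neo2/neo2, with *Tbx5* at 87.8 CPM, *Tbx2* at 155 and *Tbx3* at 109, against *Tbx15* at 0.54 and *Tbx18* at 1.87. With 1 library per genotype, the tissue that was dissected and the genotype cannot be told apart.

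With the classes as defined above, no member was at least 2-fold lower than the control in epithelium or mesenchyme of either mutant library. In mesenchyme, 3 of the 6 members counted were higher in the library labelled Tbx1neo2/neo2 (*Tbx5*, *Tbx15* and *Tbx18*), where 17.2% of 13425 genes were higher and 3.54% lower. In Foxn11089/1089 mesenchyme, 2 of 5 members were higher (*Tbx3* and *Tbx18*), where 6.27% of 12995 genes were higher and 4.26% lower. In epithelium, 3 of 4 members were higher in Tbx1neo2/neo2 (*Tbx1*, *Tbx3* and *Tbx5*, the last at a level read as background), beside 16.9% of 14189 genes higher and 4.57% lower. In Foxn11089/1089 epithelium, 4 of 4 were higher (*Tbx1*, *Tbx2*, *Tbx3* and *Tbx18*), beside 19.0% of 15149 genes higher and 7.52% lower. A gene entered these counts with at least 30 UMIs in the 2 libraries together, which a member could reach through the library in which it was high.

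The split of higher and lower genes moved when the ratios were centred on their median, which was above 0 in both mutant libraries (0.40 and 0.30 in epithelium, 0.37 and 0.17 in mesenchyme, for Tbx1neo2/neo2 and Foxn11089/1089). After centring, 7.09% of genes were higher and 10.2% lower in Tbx1neo2/neo2 epithelium, and 12.4% and 11.5% in Foxn11089/1089 epithelium. In mesenchyme they were 9.23% and 8.70% in the library labelled Tbx1neo2/neo2 and 3.99% and 6.09% in Foxn11089/1089. The members past the fold were then the same in number, apart from *Tbx3* in Foxn11089/1089 mesenchyme, which left 1 of 5.

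Members were also compared within mesenchymal cells of each library. *Tbx3* was higher in *Tbx2*-positive than in *Tbx2*-negative cells, with a log2 ratio of 0.49 in control mesenchyme (0.14 to 0.85), 1.82 in the library labelled Tbx1neo2/neo2 (1.60 to 2.05) and 0.82 (0.70 to 0.94) in Foxn11089/1089. *Tbx1* was lower in *Tbx3*-positive than in *Tbx3*-negative cells, by -1.58 (-3.30 to -0.21), -1.03 (-1.47 to -0.60) and -1.95 (-2.53 to -1.40). The direction was the same in all 3 libraries for both pairs. In Tbx1neo2/neo2, *Tbx5*-positive cells held *Tbx15* at 20.8 CPM against 2.95 in *Tbx5*-negative cells and *Tbx3* at 88.9 against 25.4, and *Tbx15*-positive cells held *Tbx18* at 62.1 against 19.6. In *Tbx1*-positive cells, *Tbx18* was at a log2 ratio of 0.73 (0.47 to 0.98) in Tbx1neo2/neo2 and -0.66 (-1.18 to -0.18) in Foxn11089/1089, opposite ways. The control ratio was -0.61 (-3.69 to 1.31), from 2 UMIs in the *Tbx1*-positive cells. In *Tbx18*-positive cells, *Tbx1* was at 0.30 (-0.15 to 0.74) in Tbx1neo2/neo2, an interval that includes 0. It was at -1.57 (-2.40 to -0.83) in Foxn11089/1089. *Tbx2*-positive cells held a median of 10734, 27037 and 15987 UMIs against 8663, 23821 and 12627, and the part of depth in these ratios was not tested.

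**Figure D5:**
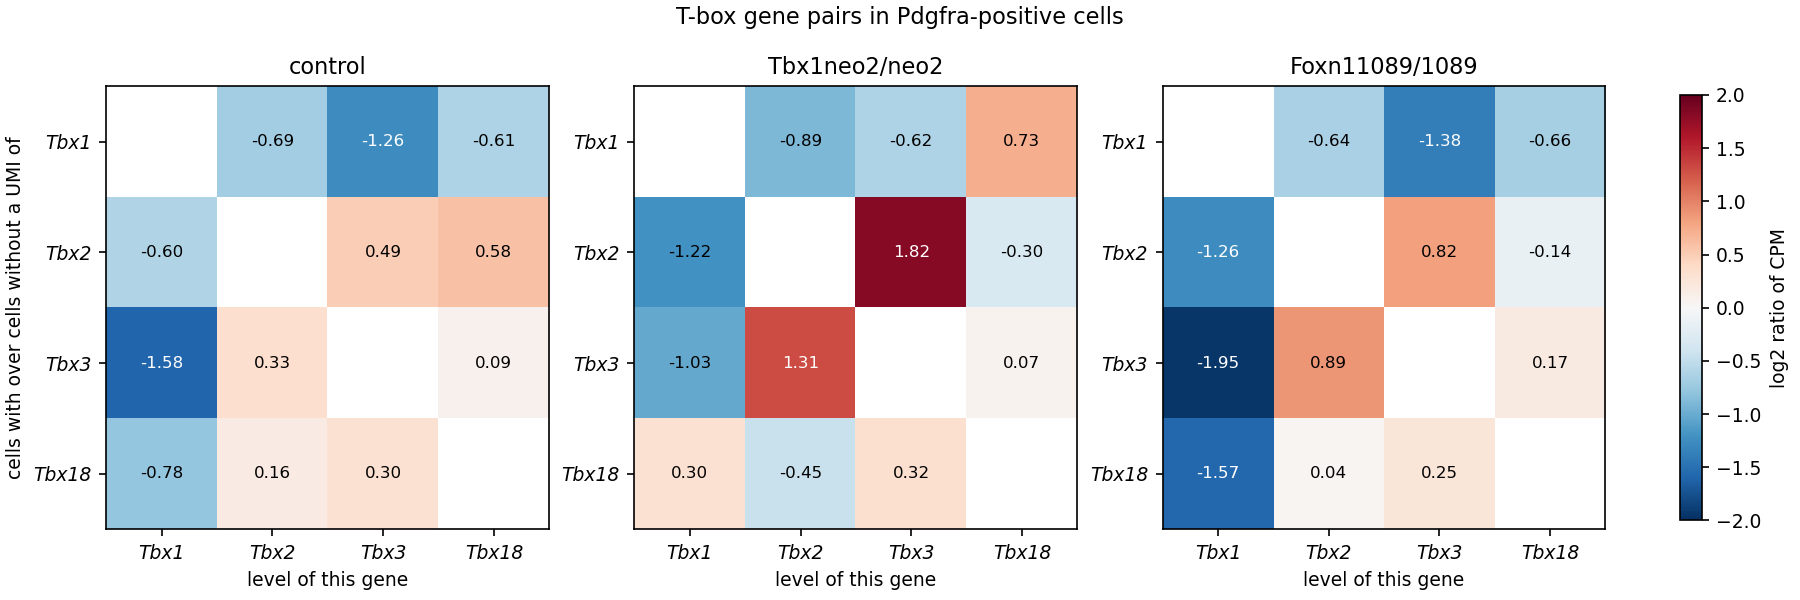
Log2 ratio of the level (CPM) of the gene in a column between *Pdgfra*-positive cells with and without a UMI of the gene in a row, for 4 T-box genes in each library, from -2 (blue) to 2 (red). *Tbx2* and *Tbx3* are above 0 in both directions in all 3 libraries, and *Tbx1* is below 0 in cells with *Tbx2* or *Tbx3*.

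Likeness over the 12 sums of class and library was measured with Pearson's correlation of log2(CPM + 1), among 15254 genes with at least 100 UMIs, and is a description, since sums from 1 library share its depth. *Tbx1* was most like *Reep1* (0.966), *Uaca* (0.962) and *Smad1*, a BMP signal transducer (0.955). *Tbx2* was most like *Flnc* (0.989), *Col3a1*, a fibrillar collagen (0.987), and *Slit3*, a guidance signal (0.986), and *Tbx3* most like *Gm21992*, *Zfp449* and *Cdh2*, N-cadherin (0.959). *Tbx5* was most like 6030408B16Rik, *Foxf1* (0.976) and *Sim2*, *Tbx15* most like *Panx3*, *Hoxc6* (0.992) and *Gm43050*, and *Tbx18* most like *Lamp5*, *Cdh9* and *Slc5a7* (0.979). Among the members themselves, the highest values were 0.935 for *Tbx2* with *Tbx18*, 0.926 for *Tbx5* with *Tbx15* and 0.880 for *Tbx2* with *Tbx3*. The values for *Tbx5* and *Tbx15* rest largely on 1 sum, Tbx1neo2/neo2 mesenchyme. These genes were at 33.5 and 8.47 CPM there, and at most 3.98 and 0.28 in any other sum. *Tbx2*, *Tbx3* and *Tbx18* were all highest in mesenchyme. Class sums do not show whether the same cells held both genes of a pair.

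The other 11 T-box family genes were sparse apart from *Mga* and, in Tbx1neo2/neo2, *Tbx4*. *Mga*, a broadly expressed MAX partner, was at 33.4, 61.4 and 53.4 CPM over all kept cells of the control, Tbx1neo2/neo2 and Foxn11089/1089. *Tbx4*, the hindlimb and lung relative of *Tbx5*, had 6, 505 and 85 UMIs over all kept cells. In mesenchyme *Tbx4* had 2, 269 and 61 UMIs, with log2 ratios over the control of 4.61 (2.74 to 7.66) and 2.50 (0.59 to 5.58). *Tbx20*, a heart gene, had 14, 96 and 5 UMIs over all kept cells. *Tbx21*, a regulator of type 1 lymphocytes, had 8, 45 and 49 UMIs in hematopoietic cells, and *Eomes*, its relative, 11, 3 and 11. The remaining 6 genes had at most 43 UMIs in any library.

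The 26 genes listed as regulators, partners or targets of *Tbx1* were counted in the same cells. In epithelium, 4 of 18 counted were higher and 2 lower in the library labelled Tbx1neo2/neo2 (median log2 ratio 0.53, all genes 0.40), and 9 of 19 higher and 4 lower in Foxn11089/1089 (median 0.85, all genes 0.30). Over all genes, 16.9% were higher and 4.57% lower in the first comparison, and 19.0% and 7.52% in the second. *Foxa2* was at 0.18 CPM in control and 17.1 in Tbx1neo2/neo2 epithelium, *Shh* at 0 and 6.11, the secreted ligand *Wnt5a* at 5.33 and 20.2, and *Chd7*, a chromatin remodeler, at 24.7 and 53.1. In Foxn11089/1089 epithelium, *Gcm2*, the parathyroid determinant, was at 39.1 CPM against 1.83 in the control, the transcriptional coactivator *Eya1* at 73.6 against 25.4, and *Mef2c*, a MADS-box factor, at 76.2 against 21.2. The lower genes, named after their values were seen, were *Gcm2* (0 against 1.83 CPM) and the growth factor *Fgf3* (0.09 against 1.35) in Tbx1neo2/neo2. In Foxn11089/1089 they were *Fgf3* (0.36 against 1.35 CPM), *Dll4* (6.58 against 16.7), *Cyp26b1*, a retinoic acid-degrading enzyme (2.31 against 8.10), and *Msc* (0.29 against 8.57).

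In mesenchyme, 4 of the 15 counted were higher and 1 lower in the library labelled Tbx1neo2/neo2 (median log2 ratio 0.61, all genes 0.37), and 2 of 15 higher and 1 lower in Foxn11089/1089 (median 0.19, all genes 0.17). Over all genes, 17.2% were higher and 3.54% lower in the first, and 6.27% and 4.26% in the second. *Isl1*, a progenitor factor of the second heart field, was at 0.59 CPM (4 UMIs) in the control and 13.7 in Tbx1neo2/neo2, *Wnt5a* at 35.4 and 141 and *Mef2c* at 26.5 and 93.3. *Tcf21*, a pharyngeal muscle and mesenchymal factor, was at 275 and 91.8 CPM, a log2 ratio of -1.58 (-1.66 to -1.50). In Foxn11089/1089, *Isl1* had a log2 ratio of 1.38 (-0.06 to 3.31) and the Notch ligand *Dll4* one of -1.27 (-2.11 to -0.38).

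The 20 neighbours of *Tbx1* on chromosome 16 were counted too. In epithelium, 3 of 19 counted were higher and 0 lower in the library labelled Tbx1neo2/neo2 (median log2 ratio 0.21, all genes 0.40), and 1 of 20 was higher and 1 lower in Foxn11089/1089 (median -0.06, all genes 0.30). In mesenchyme these were 3 of 19 and 0 in Tbx1neo2/neo2 (median 0.31, all genes 0.37), and 0 and 2 of 18 in Foxn11089/1089 (median 0.05, all genes 0.17). The share of neighbours higher in Tbx1neo2/neo2 was thus close to the 16.9% and 17.2% of all genes in epithelium and mesenchyme, where 4.57% and 3.54% were lower. In Foxn11089/1089, 19.0% of all genes were higher and 7.52% lower in epithelium, and 6.27% and 4.26% in mesenchyme. *Hira*, a histone chaperone, was at 12.2 CPM in control and 25.1 in Tbx1neo2/neo2 epithelium, a log2 ratio of 1.04 (0.88 to 1.21), and *Rtn4r*, the Nogo receptor, at 0.41 and 2.58, one of 2.65 (1.84 to 3.57). *Prodh*, proline dehydrogenase, was at 8.87 CPM in control and 3.66 in Foxn11089/1089 epithelium, a log2 ratio of -1.28 (-1.50 to -1.05), and had one of -1.41 (-1.98 to -0.82) in its mesenchyme. *Arvcf*, a catenin, had a log2 ratio of 1.01 (0.37 to 1.71) in Tbx1neo2/neo2 mesenchyme.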

How the data were processed

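Lobes of 3 genotypes, 1 library each, were profiled by droplet 3′ sequencing. The authors deposited raw counts: filtered matrices of UMI counts per gene and cell, made per the labels with Cell Ranger 3.0.0 on mm10 (Seurat is also named there). All 27998 genes were used. Groups came from the genotype labels. Counts were summed per class and library and scaled to CPM, with exact Poisson intervals for levels, exact binomial (Clopper-Pearson) intervals for shares, and exact conditional binomial intervals for log2 ratios, all at 95% and covering counting error only. The limit of a count of 0 was 3 UMIs. A ratio of 2 or 0.5 was called among genes with at least 30 UMIs. Cells were thinned to 5000 UMIs for shares. Python 3.11.15, numpy 2.4.6, scipy 1.17.1, pandas 2.3.3, scanpy 1.11.5 (Scrublet) and matplotlib 3.10.9 were used. The code for ratios was run on counts simulated with Poisson error alone, the error that the intervals assume. That simulation held no variation between cells or libraries, so it cannot show how far genotype ratios would repeat. No doublets were removed in the main results. Cells with mixed markers were 7.69 to 9.83% of the kept cells, and how many of them entered a class was not counted. The classes did hold cells with a UMI of another class marker. An *Epcam* UMI was found in 35 of 578 control and 58 of 319 Foxn11089/1089 hematopoietic cells. In Tbx1neo2/neo2 it was found in 98 of 282 hematopoietic cells without a *Tbx1* UMI and 9 of 17 with one.

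The members, gene lists and marker lists were chosen with earlier results of these data known. Named beside the 6 members were, for each member with at least 20 positive cells in every library in its highest class, the 5 genes with the largest lowest log2 ratio between positive and negative cells (0.5 UMI added, at least 20 UMIs in positive cells), the 3 most alike over 12 sums, and at most 4 genes per list with the most UMIs among those past the fold. The lists were 11 other T-box genes, 26 *Tbx1* regulators and targets and 20 *Tbx1* neighbours. Alternatives were a 10% mitochondrial limit, a 2000-UMI minimum, removal of the highest Scrublet scores, median-of-ratios size factors, totals without hemoglobin, means of CPM per cell, looser and stricter classes, and other thinning. Splits by *Foxa2* or *Shh*, by *Hoxa* genes, *Tbx4* or *Foxf1* and by marker set, and centring, were chosen after seeing the data. Some genes that the naming rule selected are not reported here.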

Additional observations from a re-analysis of the deposited data

Results flagged for a closer look

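In 3 cases the ratio over the control had opposite signs in 2 cell classes of the same library, each with a counting interval on its side of 0. The difference between the classes was not tested, since each class came from 1 library per genotype. *Tbx1* in Foxn11089/1089 had a log2 ratio of 3.15 in epithelium and -0.62 in mesenchyme, a difference of 3.77. *Tbx2* in Tbx1neo2/neo2 had a log2 ratio of 0.81 in epithelium and -0.19 in mesenchyme, a difference of 0.998, and 1.39 in hematopoietic cells (25 against 6 UMIs), 1.57 above mesenchyme. In these hematopoietic cells the looser and stricter classes gave 0.39 and 0.22 for *Tbx2*.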

How the results depend on the processing

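No paired analysis was possible because each genotype had 1 library. For *Tbx1* over all kept cells, median-of-ratios size factors gave a log2 ratio of 1.38 in Tbx1neo2/neo2 (1.79 as reported) and means of CPM per cell gave 1.37 in Foxn11089/1089 (1.96). In epithelium, *Tbx1* in Foxn11089/1089 was at 1.99 without parathyroid- and thyroid-marked cells and 2.11 without *Foxa2*- or *Shh*-positive cells too, where Tbx1neo2/neo2 was at 1.43 (1.425). In mesenchyme the stricter class gave -0.69 and -1.17 for *Tbx1*, and *Tbx5* in Tbx1neo2/neo2 was at 3.95 without the *Hoxa*, *Tbx4* or *Foxf1* cells. Means of CPM per cell gave 1.20 for endothelial *Tbx1* in Tbx1neo2/neo2, against 0.09. *Tbx2* in Foxn11089/1089 endothelium turned from 2.35 (33 against 1 UMIs) to -0.20 (3 against 1) in the looser class. The side of the 2-fold limit also changed for *Tbx3* in Foxn11089/1089 mesenchyme (0.95 in the stricter class, 0.98 with size factors) and for *Tbx2* in Tbx1neo2/neo2 epithelium (1.05 without high Scrublet scores). Without high Scrublet scores it changed too for endothelial *Tbx2* (0.32, 8 against 1 UMIs) and *Tbx3* (-1.36, 15 against 6) in Foxn11089/1089. Of 22 ratios by class, all 22 kept their value within counting error under the mitochondrial and depth limits, 21 without high Scrublet scores and in the looser class (where the other one turned), and 20 each with size factors and with means. In the stricter class 18 of 21 did and 3 moved. Over all kept cells, 5 of 11 did with size factors and 5 of 11 with means, against 9 of 11 without hemoglobin. Shares moved with thinning in 24 of 30 cases at 2000 UMIs and 29 of 30 without it, so they bear only comparison at 1 depth. Endothelial ratios rest on 51 control cells.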

Other observations

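Cells without a class held many T-box UMIs as well. Among the 2320 control, 2613 Tbx1neo2/neo2 and 2996 Foxn11089/1089 cells of no class, *Tbx5* was at 0.86, 25.7 and 2.20 CPM, *Tbx15* at 0.04, 4.32 and 0.08, and *Tbx18* at 3.57, 23.0 and 26.9. *Tbx2* was at 27.9, 53.8 and 61.6 CPM and *Tbx3* at 10.9, 35.8 and 49.6, while *Tbx1* was at 1.18, 4.18 and 3.74. The order of the libraries for *Tbx5* and *Tbx15* was that of the mesenchymal cells. In Tbx1neo2/neo2, 133 of these cells carried cartilage markers, with *Tbx5* at 117 CPM, *Tbx2* at 183 and *Tbx3* at 158.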
